A study of Mus musculus with 13 samples.

Results

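The cells described here were the fibroblasts of the mouse mammary gland in which transcripts of at least 2 of Thbs4, Cilp, Hmcn2 and Bmp5 were detected. They were taken from single-cell RNA sequencing of 13 libraries in 9 groups, of which the 11 libraries without tumours were used. A barcode counted as a fibroblast when it held 500 to 7500 genes and at most 10% mitochondrial transcripts, when Dcn, Lum and Col1a2 together reached 50 of every 10000 unique molecular identifiers (UMIs, each standing for 1 captured transcript), and when it held no UMI of Epcam, Pecam1, Rgs5, Sox10, Ptprc or Myog. Of 104405 barcodes, 87370 were fibroblasts by this rule and 13473 of these, 15.4% of the pooled fibroblasts, were Thbs4/Cilp cells. The other 73897 are called the remaining fibroblasts.

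The libraries of the developmental stages came from wildtype C57BL/6 females, with 2 females pooled per condition and 1 library each for puberty (4 weeks), adulthood (9 weeks), pregnancy (day 14.5), lactation (day 10) and involution (day 4). The hormone libraries came from C57BL/6 wildtype females of 9 weeks that received placebo or medroxyprogesterone acetate with estradiol (MPA+E), a progestin and an estrogen, with 2 libraries each; the sample titles name the treatment as drug and the protocol as MPA+E. All 9 of these libraries held stromal cells sorted as Lineage–CD24–. The hyperplasia libraries came from 2 raGFP-Wnt1 mice of 45 and 17 weeks, on a mixed C57BL/6 and FVB background, of genotype Pdgfra-GFP KI/+ MMTV-Wnt1 T/+. They carried a green fluorescent protein (GFP) gene at 1 Pdgfra allele, which marks fibroblasts, and a Wnt1 transgene under the mammary tumour virus promoter, which acts mainly in the epithelium. Their cells were sorted as GFP+, and the same mice gave the tumour libraries. Background, age, sort and transgene all differed between the hyperplasia libraries and the wildtype libraries and cannot be told apart.

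Mammary fibroblasts lie around the ducts and lobules, in the connective tissue between them and in the fat pad, and they lay down the matrix and secrete the growth factors that the epithelium meets. The genes of the rule encode proteins of that matrix and its signals. Thbs4 encodes thrombospondin-4, a secreted protein that binds collagens and is best known in tendon and muscle; Cilp encodes a cartilage matrix protein that binds IGF1 and TGF-β1; Hmcn2 encodes hemicentin-2, a large protein of basement membrane junctions; and Bmp5 encodes a ligand of the bone morphogenetic protein family. Myoc, which encodes the secreted glycoprotein myocilin, took no part in the rule and was followed as a further marker. It belongs to the list of lobular cluster genes that the study drew from these same samples. It is therefore not an independent check of the cells.

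The windows of 250 bases before the transcription start of these 5 genes (RefSeq, mouse assembly GRCm38.p6) are shown because the report turns on which of these genes were read together in a cell. Each is printed 5′ to 3′ on the strand of the gene, and capitals mark TATAA, the core of a TATA box, or GGAATG, the core read by TEAD factors, searched on both strands.

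Thbs4, chr13:92794819-92795068, minus strand: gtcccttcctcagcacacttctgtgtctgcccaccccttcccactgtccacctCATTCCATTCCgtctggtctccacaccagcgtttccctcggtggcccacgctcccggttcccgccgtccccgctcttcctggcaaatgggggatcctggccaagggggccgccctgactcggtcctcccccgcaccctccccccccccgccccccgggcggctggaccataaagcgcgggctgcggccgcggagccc

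Cilp, chr9:65264930-65265179, plus strand: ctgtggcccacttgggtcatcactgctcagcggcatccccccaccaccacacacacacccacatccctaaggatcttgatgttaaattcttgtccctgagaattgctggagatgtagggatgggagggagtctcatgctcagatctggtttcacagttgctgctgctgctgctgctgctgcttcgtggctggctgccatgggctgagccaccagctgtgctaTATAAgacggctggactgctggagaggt

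Hmcn2, chr2:31314082-31314331, plus strand: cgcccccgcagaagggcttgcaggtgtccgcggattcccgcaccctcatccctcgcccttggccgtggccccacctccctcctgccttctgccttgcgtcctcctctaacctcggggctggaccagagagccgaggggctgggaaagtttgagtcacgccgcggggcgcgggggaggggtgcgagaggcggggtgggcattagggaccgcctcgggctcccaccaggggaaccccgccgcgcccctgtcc

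Bmp5, chr9:75775115-75775364, plus strand: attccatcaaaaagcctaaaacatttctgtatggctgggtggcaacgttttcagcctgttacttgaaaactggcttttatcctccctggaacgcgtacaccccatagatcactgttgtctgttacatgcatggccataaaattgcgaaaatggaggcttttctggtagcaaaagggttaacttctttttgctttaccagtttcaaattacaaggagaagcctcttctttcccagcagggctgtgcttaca

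Myoc, chr1:162638900-162639149, plus strand: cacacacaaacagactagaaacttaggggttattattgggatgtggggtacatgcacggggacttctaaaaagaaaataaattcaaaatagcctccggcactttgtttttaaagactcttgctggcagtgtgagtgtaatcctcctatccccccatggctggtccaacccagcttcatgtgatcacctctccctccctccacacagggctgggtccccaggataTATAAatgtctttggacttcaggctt

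The Cilp and Myoc windows each held 1 TATAA, 28 and 26 bases before the start. The Thbs4 window held 2 copies of GGAATG on the reverse strand, 197 and 192 bases before the start and overlapping by 1 base, and the Hmcn2 and Bmp5 windows held neither word. Of 32851 windows of this length, 22.8% held TATAA and 12.6% held GGAATG. The E-box CANNTG was present in 66.2% of windows and occurred 3 times before Cilp, 1 time each before Thbs4, Hmcn2 and Myoc, and not before Bmp5. The windows of Thbs4 and Hmcn2 were rich in G and C (70.8% and 72.4%), whereas those of Cilp, Myoc and Bmp5 held 56.0%, 46.8% and 42.8%, against a median of 52.4% over all windows. These matches describe the letters only. In the GENCODE M21 annotation the genes lie at chr13:92751590-92794818 (Thbs4), chr9:65265180-65280605 (Cilp), chr2:31314415-31460738 (Hmcn2), chr9:75775364-75900310 (Bmp5) and chr1:162639155-162649693 (Myoc).

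The 11 libraries held 56551189 to 100543375 UMIs over 5867 to 14424 barcodes. The median Thbs4/Cilp cell held 3611 UMIs in pregnancy, the shallowest library, and 18803.5 in MPA+E 1, the deepest, so a gene was more easily detected in some libraries than in others. The 13473 cells had 13454 distinct barcode sequences, of which 19 occurred in more than 1 library. Cells with the highest doublet scores made up 4.56% to 15.7% of the Thbs4/Cilp cells and 4.42% to 10.9% of the remaining fibroblasts, and they were kept unless stated. Within every library their share was higher among the Thbs4/Cilp cells, by least in placebo 1 (4.56% against 4.54%), and with 15.2% against 9.61% in the adult. Among barcodes of other lineages, which carried a UMI of an excluded gene and few fibroblast transcripts, 0% to 1.42% held 2 or more of the rule genes, at median depths of 1763.5 to 8328 UMIs. In hyperplasia 1 this was 0 of 57 such barcodes, which allows a share of up to 5.26%. The 2 libraries of each replicated group differed by more than the sampling noise, with a chi-square per degree of freedom of 19.2 for placebo, 42.3 for MPA+E and 11.8 for hyperplasia.

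Cilp and Hmcn2 were the most widely detected genes of the rule. Cilp was found in 85.8% to 97.5% of Thbs4/Cilp cells in every library and Hmcn2 in 78.2% to 98.1%, whereas Bmp5 was found in 13.6% to 41.2%. Thbs4 varied most. Its share was 64.3% for puberty, 68.6% for the adult stage, 65.3% for pregnancy, 30.5% for lactation and 51.9% for involution. In the hormone libraries Thbs4 was found in 50% of them in placebo 1 and in 51.1% to 59.0% in the other 3, and in hyperplasia in 27.6% and 8.65%. Because the rule used these values they describe the selection and were not tested.

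The combination of genes that admitted a cell therefore differed between libraries. Cells with 3 or 4 of the genes made up 59.3% of the Thbs4/Cilp cells in puberty, 62.6% in the adult and 56.3% in pregnancy, but 28.1% in lactation, 37.2% in involution and 14.2% in hyperplasia 2. Cells admitted by Cilp and Hmcn2 alone made up 24.1% to 27.9% in puberty, adult and pregnancy, 62.6% in lactation, 42.4% in involution, 25.7% to 39.7% in the hormone libraries and 47.0% and 70.1% in hyperplasia. Cells with all 4 genes numbered from 9 in hyperplasia 2 to 300 in the adult. Just inside the threshold stood the cells with exactly 2 genes, and just outside it the cells with exactly 1, which made up 14.95% to 27.5% of all fibroblasts.

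**Figure D1:**
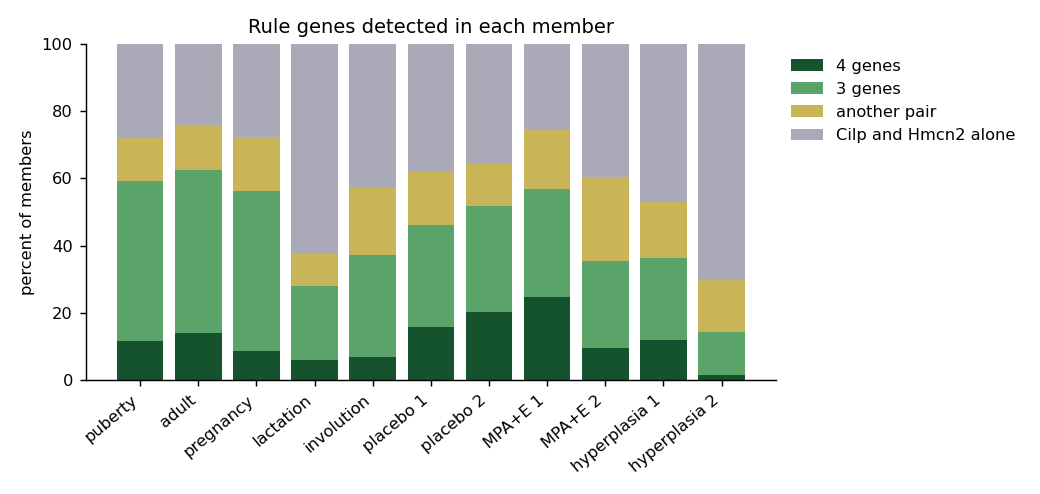
Genes of the rule detected per Thbs4/Cilp cell. Each stacked bar is 1 library and divides its cells (y axis, percent of Thbs4/Cilp cells) into those with all 4 genes, those with 3, those with Cilp and Hmcn2 alone and those with another pair; the share of Cilp and Hmcn2 alone was lowest in the adult at 24.1% and highest in hyperplasia 2 at 70.1%.

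Myoc marked these cells in every library, but not to the same extent. A Myoc UMI was found in 70.2% of the Thbs4/Cilp cells of puberty against 8.45% of the remaining fibroblasts, in 83.0% against 17.5% in the adult and in 76.9% against 13.4% in pregnancy. It was found in 28.9% against 10.8% in lactation and in 27.1% against 12.1% in involution, so that most of the cells there carried no Myoc UMI, although these libraries were deeper than the other 3 stages. After each cell was thinned to 2000 UMIs the shares with Myoc were 49.8%, 70.6%, 68.9%, 24.4% and 21.9% from puberty to involution, and 38.2%, 48.1%, 38.8%, 17.3%, 48.2% and 36.1% in placebo 1, placebo 2, MPA+E 1, MPA+E 2, hyperplasia 1 and hyperplasia 2. In barcodes of other lineages Myoc was found in 0% to 1.82%. Among cells with 3 or 4 of the rule genes the unthinned share with Myoc was 62.8% in lactation and 49.5% in involution, and among cells with Cilp and Hmcn2 alone it was 13.9% and 13.2%. Without thinning, Myoc was thus found in most cells of puberty, adult and pregnancy, of placebo 2 (59.4%), MPA+E 1 (57.7%) and hyperplasia 1 (55.4%), and in a minority in lactation, involution, placebo 1 (49.2%), MPA+E 2 (26.3%) and hyperplasia 2 (42.7%). Thbs4 itself was found in a minority in lactation and hyperplasia, so that the name Thbs4/Cilp cells is only a short form for the rule of any 2 of the 4 genes.

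Levels are given in CPM, the UMIs of a gene per 1000000 UMIs of the summed cells of a library. The levels of several genes outside the rule were ordered by the number of rule genes, and those of others were not. The median over libraries of Myoc was 875 CPM in cells with 3 or 4 genes, 555 CPM in cells with Cilp and Hmcn2 alone, 172 CPM in fibroblasts with 1 gene and 86.7 CPM in fibroblasts with none. Col8a1, a short-chain collagen, went from 322 to 18.6, 8.15 and 1.69 CPM over the same classes, a far steeper drop between the first and the next class than Myoc. Adamtsl2, which encodes a secreted regulator of TGF-β availability at microfibrils, went from 78.1 to 6.79, 2.86 and 0.651 CPM. Mfap4, a microfibril protein, went from 635 to 292, 143 and 36.2 CPM, and Tgfbi, a secreted TGF-β-induced adhesion protein, from 456 to 248, 99.9 and 49.7 CPM. For Myoc, Col8a1, Adamtsl2, Mfap4, Tgfbi, Angptl1, Meox1 and Ccn2 the level was higher in cells with 3 or 4 genes than in cells with the pair, and higher in these than in fibroblasts with 1 gene, in 11 of 11 libraries. These genes are among those named below for standing higher in the Thbs4/Cilp cells of every library, which sets part of this order. The first step held in 10 of 11 libraries for Smoc2, C1qtnf3 and Inhba and in 8 for Mgp. The second held in 10 of 11 for Inhba, Gfra1 and Mgp and in 9 for Ret, Ltbp4 and Fbln2. Igfbp5, an IGF binding protein, ran the other way in 11 of 11 libraries, with medians of 382, 449, 1181 and 3021 CPM. Pi16 was not ordered in this way among the Thbs4/Cilp cells, with medians of 584, 556, 730 and 1430 CPM, and Myoc in hyperplasia 2 was lower with 1 gene than with none (265 against 296 CPM). The detection of more genes goes with depth as well as with level, and the part of depth in this order was not tested.

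**Figure D2:**
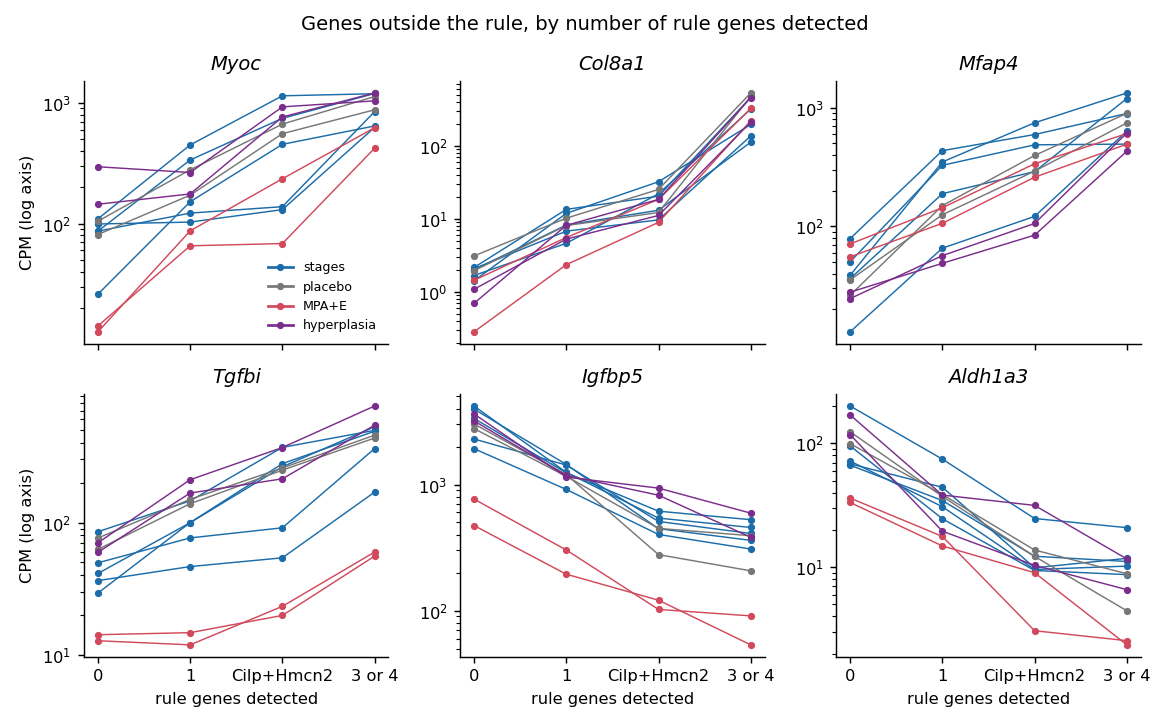
Levels of 6 genes outside the rule (y axis, CPM on a log scale) in fibroblasts grouped by the rule genes detected (x axis: none, 1, Cilp and Hmcn2 alone, 3 or 4), with 1 line per library coloured by group. Myoc, Col8a1, Mfap4 and Tgfbi climbed toward the cells with 3 or 4 genes, and Igfbp5 and Aldh1a3 declined.

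The share of fibroblasts that met the rule ranged from 7.24% to 28.7% with a median of 13.05% over the 11 libraries. By stage it was 13.05% (929 of 7121 cells, exact binomial 95% interval 12.3 to 13.9) at puberty, 17.9% (17.2 to 18.6) at adulthood, 13.9% (13.3 to 14.5) with pregnancy, 24.1% (23.2 to 25.05) with lactation and 28.7% (27.8 to 29.6) with involution. With 1 library per stage no test was possible, and these intervals cover counting error only. Lactation stood 1.35 times and involution 1.61 times as high as the adult, but this order rested on how the cells were counted. With at least 3 genes required the shares were 7.74%, 11.2%, 7.82%, 6.77% and 10.7% from puberty to involution, so that lactation was the lowest of the 5 stages. With every cell thinned to 2000 UMIs, which left out 124 (lactation) to 1310 (pregnancy) shallower fibroblasts, they were 9.41%, 13.5%, 11.1%, 12.1% and 13.9%. The lower share in puberty and pregnancy than in the adult, and the lower share in lactation than in involution, were common to these 3 counts.

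Between the hormone groups the shares overlapped. They were 9.95% and 12.1% with placebo and 18.4% and 7.96% with MPA+E, where replicate 1 was the highest and replicate 2 the lowest of the 4 libraries (exact permutation test, two-sided, p = 1). In hyperplasia the shares were 8.98% and 7.24%, both below the 13.05% and 17.9% of puberty and adult. MPA+E 2, also wildtype, lay between the hyperplasia libraries, and both placebo libraries lay above them and below puberty and adult. The difference of the means, hyperplasia less puberty and adult, was -7.34 percentage points (exact permutation test, two-sided, p = 0.333, which is the smallest p that 2 against 2 libraries can give). When cells were thinned to 2000 UMIs, with 86 and 247 hyperplasia and 439 and 639 puberty and adult fibroblasts left out, the means were 3.10% and 11.4%, and with at least 3 genes they were 2.14% and 9.46%. Thinned, placebo stood at 5.09% and 6.58% and MPA+E 2 at 3.26%, against 3.74% and 2.46% in hyperplasia and 13.5% in the adult. These shares are of sorted fibroblasts, and the sort differed between hyperplasia and the wildtype libraries.

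**Figure D3:**
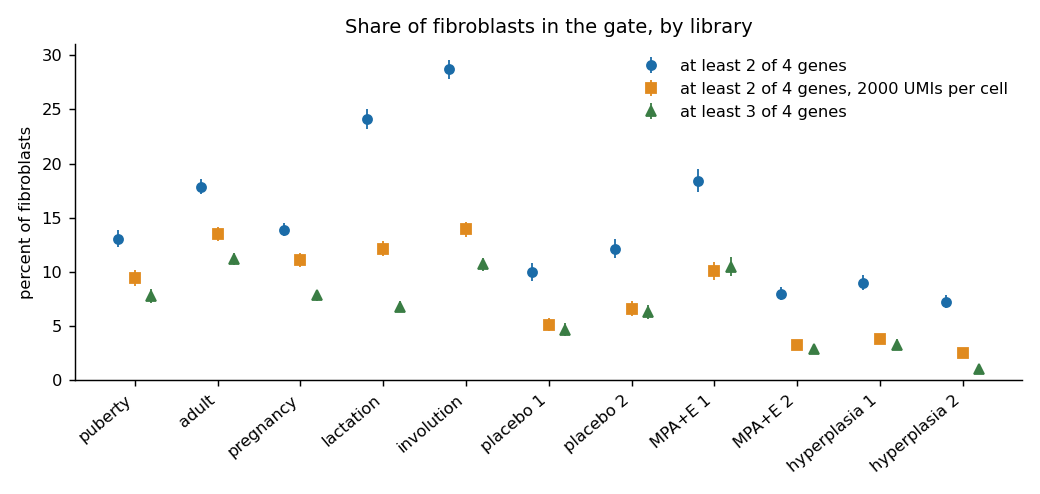
Share of fibroblasts that met the rule in each library (y axis, percent), counted with at least 2 genes, with at least 2 genes after thinning to 2000 UMIs and with at least 3 genes; bars show exact binomial 95% intervals, which cover counting error only. Lactation and involution stand highest at 24.1% and 28.7% by the first count but not with at least 3 genes, and both hyperplasia libraries lie below puberty and adult by all 3. MPA+E 2 lies between the hyperplasia libraries by all 3.

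Over all fibroblasts of a library, which avoids the choice of cells, Cilp was measured at 288, 392, 318, 510.0 and 567 CPM from puberty to involution, and Thbs4 at 226, 284, 189, 105 and 188 CPM. Cilp was thus highest in involution and Thbs4 lowest in lactation. Myoc was highest in the adult at 349 CPM and lowest in puberty at 118 CPM, with 255, 157 and 168 CPM in pregnancy, lactation and involution. Fewer cells of a kind and less RNA per cell cannot be told apart in such sums.

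Under hormones, Cilp over all fibroblasts was 200.3 and 269.6 CPM with placebo and 565 and 277 CPM with MPA+E, a log2 difference of 0.83 that did not pass (edgeR quasi-likelihood test, adjusted p = 0.308). Thbs4 was 119.7 and 183 CPM against 405 and 96.8 CPM and Myoc 157 and 237 CPM against 133 and 46.6 CPM. Neither passed the edgeR test (log2 difference 0.70, adjusted p = 0.661 for Thbs4, and -1.16, adjusted p = 0.317 for Myoc), nor did Hmcn2 (-0.41) or Bmp5 (0.03). In that comparison 2.70% of 15617 genes were called higher and 1.65% lower. In fits with 1 MPA+E library, which was assumed to vary like the placebo libraries, the values moved: without MPA+E replicate 1 Thbs4 was at -0.60, and Hmcn2 (-1.46, adjusted p = 0.00309) and Myoc (-2.04, adjusted p = 0.0106) passed the edgeR test; without MPA+E replicate 2 Cilp passed it (1.22, adjusted p = 0.0480).

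In hyperplasia, Thbs4 over all fibroblasts was 94.6 and 14.3 CPM against 226 in puberty and 284 in the adult. Cilp was 134 and 74.6 CPM against 288 and 392 CPM. Both fell, Thbs4 by 2.81 on the log2 scale (SE 0.78, limma-voom adjusted p = 0.0354) and Cilp by 1.78 (SE 0.29, limma-voom adjusted p = 0.00891), in a comparison where 15.5% of 15556 genes were called higher and 15.4% lower. The spread in this test mixes stage in the wildtype and age in the hyperplasia libraries with differences between animals. The Thbs4 value was -4.18 without hyperplasia 1 and -1.44 without hyperplasia 2. Thbs4 did not pass with edgeR (-2.25, adjusted p = 0.0586) or DESeq2 (-2.24, adjusted p = 0.0968). Hmcn2 was 101 and 72.2 CPM against 76.4 and 100.4 CPM, Bmp5 10.1 and 3.81 against 5.77 and 9.59 CPM and Myoc 231 and 341 against 118 and 349 CPM, all overlapping and none called. Without the adult library, a fit in which the lone puberty library was assumed to vary like the hyperplasia libraries, Myoc passed the limma-voom test (log2 difference 1.18).

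The largest differences between the Thbs4/Cilp cells and the remaining fibroblasts of the same libraries, outside the genes of the rule, included the matrix genes Col8a1, Adamtsl2 and Mfap4 and the receptor and co-receptor genes Ret and Gfra1. Since the rule sorted these cells, the contrast is given as a description. The edgeR threshold serves here only to list genes, so that tested and called say whether a gene entered the fit and passed that threshold, and no p-value is read as evidence. Of 15886 genes, 480 (3.02%) were at least 2-fold higher and past the threshold in edgeR with library as a block, and 492 (3.10%) lower, and nothing is read from these shares. All genes named in the next 4 paragraphs without a count of libraries moved the same way in 11 of 11 libraries.

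Col8a1 showed the largest difference. Its level in Thbs4/Cilp cells was 299.9, 213, 125, 42.1 and 50.5 CPM from puberty to involution, 267 and 261 with placebo, 203 and 88.6 with MPA+E and 178 and 38.0 in hyperplasia. In the remaining fibroblasts Col8a1 lay between 0.963 and 4.65 CPM, below the lowest of these values (log2 difference 5.52, SE 0.34). Adamtsl2 lay between 7.84 CPM in hyperplasia 2 and 99.9 CPM in MPA+E 1, against 0.226 to 2.88 CPM (log2 difference 5.16, SE 0.32). Angptl1, a secreted angiopoietin-like protein, was 480.4 CPM in puberty and 86.4 CPM in hyperplasia 2 at its extremes, against 14.4 to 55.2 CPM (log2 difference 2.94, SE 0.15). Mfap4 was highest in lactation at 946 CPM and lowest in hyperplasia 2 at 130.3 CPM, against 23.5 to 228 CPM (log2 difference 2.92, SE 0.22). Its range overlapped that of the remaining fibroblasts, although within each library it was higher in the Thbs4/Cilp cells.

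Several other matrix genes shared this direction. Ccn2, a matricellular protein induced by TGF-β and YAP/TAZ-TEAD signalling, was 83.8, 102 and 67.9 CPM in puberty, adult and pregnancy and 256 to 523 CPM in the other 8 libraries (log2 difference 2.80). Smoc2, a matricellular calcium-binding protein, was 549 to 1362 CPM against 102 to 649 CPM (2.37), and Tgfbi differed by 2.03. Of 19 matricellular genes tested, 6 were higher and none lower (Comp, Ccn2, Smoc2, Tgfbi, Ccn5, Tnc; median log2 difference 0.54 against -0.01 over all genes), of which Comp and Tnc were higher in 10 and 9 of 11 libraries. Most genes of the other matrix lists were not called: of 18 collagen genes 5 were higher and 1 lower, of 23 basement membrane genes 3 were higher, of 19 collagen processing genes 2 were higher and 1 lower, of 22 matrix proteases and inhibitors 1 was higher, and of 17 elastic fibre genes 6 were higher, among them Eln, which encodes elastin (log2 difference 1.24), and 1 lower, Efemp1 (-1.44). Of 9 small leucine-rich proteoglycans 3 were higher, led by Fmod, which encodes fibromodulin (2.97).

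Inhba, which encodes the activin A subunit, was 8.04 to 34.1 CPM against 1.58 to 5.58 CPM (log2 difference 2.60). The BMP and TGF-β ligand list, which also held the protease gene Bmp1, had 14 tested genes other than Bmp5. Of these, 4 were higher (Inhba, Gdf6, Inhbb and, in 10 of 11 libraries, Bmp4) and 2 were lower (Bmp3, Bmp7), while none of 12 receptors was called. Of 17 antagonists and latent binding proteins 4 were higher (Adamtsl2, Ltbp4 and, in 10 of 11 libraries each, Cilp2 and Ltbp2) and Chrdl1, a BMP antagonist, was lower in 10 of 11 libraries, and of 11 target genes 2 were higher (Ccn2, Tgfbi). Ret and Gfra1, which encode the receptor for GDNF-family ligands and its co-receptor, were higher by 3.85 and 3.46, at 2.56 to 59.0 CPM and 16.3 to 51.4 CPM against 0.325 to 5.56 CPM and 1.66 to 8.76 CPM. Ramp1, a co-receptor of the CGRP receptor, was higher by 2.20. Meox1, a homeobox factor, was 19.96 to 101 CPM against 4.17 to 12.2 CPM (3.04), and with Foxp2 (1.12) it was 1 of 2 higher among 28 mesenchymal transcription factors. C1qtnf3, a secreted C1q/TNF-related protein, was higher by 3.51, and Cmya5 by 2.31.

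Lists of other fibroblast classes did not share 1 direction. Igfbp5 was 92.0 to 845 CPM against 368 to 3084 CPM (log2 difference -2.26, SE 0.09) and Aldh1a3, a retinoic acid synthesising enzyme, 3.89 to 25.9 CPM against 27.3 to 157 CPM (-2.64, SE 0.10). Akr1c18, an enzyme that inactivates progesterone, was 1.60 to 55.7 CPM against 54.8 to 305 CPM (-2.72). Wnt10b, a Wnt ligand, differed by -2.48, and of 25 Wnt pathway genes 5 were lower and none higher. Of 8 genes of the progenitor list 6 were lower, among them Pi16 (-1.09) and Dpp4 (-1.02), as were all 3 genes of the Pgr Cxcl13 list (Cxcl13 -1.82, in 10 of 11 libraries). Of 5 preadipocyte genes 2 were lower and none higher, of 6 adipogenesis-regulatory genes none was called, and of 6 ECM remodelling genes Mgp and Lox were higher and Pla2g7 lower, with a summed level higher in Thbs4/Cilp cells in 11 of 11 libraries. Krtdap (-2.90), Dmkn (-2.70), Krt19 (-2.58), Sbsn (-2.43), Chst1 (-2.42) and Car8 (-2.19) completed the largest differences. A lobular cluster list was drawn from these same samples by the study and is not independent evidence. Of its genes tested, 10 of 27 were higher and none lower (median log2 difference 0.89).

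Summed markers of other cell types differed in level between lists and libraries. The summed luminal epithelial markers were 0.246 to 246 CPM in Thbs4/Cilp cells and 5.34 to 428 CPM in the remaining fibroblasts, higher in the former in 0 of 11 libraries, and highest for both in lactation. Basal epithelial markers summed to 2.72 to 286 CPM against 3.76 to 254 CPM, higher in Thbs4/Cilp cells in 5 of 11 libraries, but most of the pregnancy value was Acta2 (245 of 286 CPM), a gene fibroblasts can also express. Krt14, a keratin of basal cells, was 28.9 CPM in pregnancy and 0 to 0.911 CPM in the other 10 libraries. Immune markers were 1.42 to 12.4 CPM against 2.17 to 10.1 CPM, endothelial markers 10.1 to 44.3 against 6.04 to 48.6 CPM and pericyte markers 26.4 to 65.8 against 21.7 to 60.7 CPM. Tenocyte markers were higher in 11 of 11 libraries, at 12.2 to 60.9 CPM against 4.55 to 18.1 CPM. Of the 6 markers 5 were called higher, namely Fmod, Comp, Scx, Tnmd and Mkx, but Scx, the factor that defines tendon cells, lay at 0.135 to 5.15 CPM and Comp at 0 in placebo 1. The highest Scx value, in puberty, came mainly from the 119 cells with another pair of rule genes (Scx 33.9, Tnmd 66.4 and Comp 27.1 CPM), against 1.81, 4.39 and 0 CPM in the puberty cells with 3 or 4 genes. Muscle markers were 4.06 to 24.2 CPM against 3.40 to 9.88 CPM, higher in 8 of 11 libraries. Immediate early and heat shock genes summed to 24102 to 46863 CPM against 17762 to 47463 CPM, higher in Thbs4/Cilp cells in 9 of 11 libraries, with none of the 12 genes called. The part of such cells and genes in the differences was not tested.

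Between the 5 stages, 97 of 1681 genes at 100 CPM or more in Thbs4/Cilp cells at their highest stage differed by at least 4-fold between the highest and lowest stage, and 414 by at least 2-fold. Each stage was 1 library, so the intervals of these ratios cover counting error only, and the stages could not be compared with a test. Igfbp2, an IGF binding protein, was 3.75, 36.5, 75.5, 24.6 and 408 CPM from puberty to involution (ratio 109, 95% interval 72.9 to 162), with 31.3 for the same stages in the remaining fibroblasts. Crabp1, a retinoic acid binding protein, was 1.56, 8.88, 25.1, 109 and 111 CPM (71.1, 38.2 to 132) against 8.52 in the remaining fibroblasts. Hc, which encodes complement C5, was 2.19, 9.80, 28.3, 101 and 138 CPM (63.0, 37.3 to 106), against 22.8. Over all Thbs4/Cilp cells Crabp1 and Hc stood higher at each later stage, and Igfbp2 was lower in lactation than in pregnancy. The combination of rule genes that admitted the cells differed between stages, and its part in these ratios was not tested.

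Cebpb, a transcription factor, was 45.6, 52.4, 36.7, 638 and 824 CPM (ratio 22.5, 19.8 to 25.5), and Hspa1b, an inducible heat shock protein, 106, 259, 42.6, 986 and 1222 CPM (28.7, 25.5 to 32.3). In the remaining fibroblasts the ratios were 14.1 and 21.2. Chchd10, a mitochondrial protein, was 1.25, 1.47, 4.49, 21.7 and 130.5 CPM (104, 52.2 to 209), and Hmcn1, the paralogue of Hmcn2, was 4.996, 16.6, 19.96, 126 and 90.8 CPM (25.1, 17.7 to 35.6). Idi1, an enzyme of cholesterol synthesis, stood out in lactation at 141 CPM, with 20.3, 13.9, 5.42 and 8.50 CPM at the other stages (26.1, 18.7 to 36.4) and 25.1 in the remaining fibroblasts. Acta2, smooth muscle actin, was highest in pregnancy at 245 CPM and lowest in lactation at 1.43 CPM (172, 115 to 257; 35.3 without likely doublets). Krt14, a basal epithelial keratin, was also highest in pregnancy, at 28.9 CPM in these cells and 21.4 CPM in the remaining fibroblasts, and the part of epithelial transcripts in the Acta2 value was not tested.

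Transcripts of other cells were among the largest ratios. Wap and Csn2, milk protein genes of the epithelium, were 149 and 111 CPM in the Thbs4/Cilp cells of lactation and 260.1 and 205 CPM in the remaining fibroblasts. Wap was at 0 in puberty and adult and at 1 UMI in pregnancy (ratio 962, 135 to 6834), and Csn2 was at 0 in puberty and adult, and in the latter at least 478-fold lower than in lactation against a floor of 3 UMIs. Hbb-bs, a globin gene of red blood cells, was 186 CPM in puberty and 0 in involution, at least 1491-fold lower by the same floor. With at least 3 genes required that ratio was 2.26.

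Several genes that stood high in Thbs4/Cilp cells against other fibroblasts were lower in lactation and involution. Myoc was 562, 1156, 1007, 315 and 308 CPM from puberty to involution (adult to involution ratio 3.76, 3.65 to 3.86), Col8a1 differed 7.12-fold between puberty and lactation and Adamtsl2 8.77-fold between puberty and involution. Tgfbi was 435, 429, 389, 157 and 96.3 CPM (4.52-fold, 4.28 to 4.77), Angptl1 480.4, 271, 247, 93.4 and 104 CPM and Meox1 101, 84.7, 45.0, 28.6 and 19.96 CPM. Other genes that stood high in these cells did not share the pattern. Ccn2 went from 67.9 CPM in pregnancy to 306 CPM in involution, C1qtnf3 was 60.9, 24.0, 54.0, 129 and 118 CPM over the 5 stages, Smoc2 and Mfap4 were highest in lactation over all Thbs4/Cilp cells, and Ramp1 was 32.9, 37.7, 51.4, 49.7 and 35.0 CPM. The share of cells admitted by Cilp and Hmcn2 alone was highest in lactation and involution. Values within cells that held the same number of rule genes differed from these. In cells with 3 or 4 genes Myoc was 643, 1188, 1194, 845 and 626 CPM, so that lactation lay above puberty, and in cells with all 4 genes it was 585, 1434, 1293, 1612 and 1365 CPM, with the highest value in lactation. In cells with 3 or 4 genes Col8a1 was 465 CPM in puberty and 138 CPM in lactation, and Adamtsl2 139 CPM in puberty and 24.4 CPM in involution. Tgfbi was 496, 528, 488, 362 and 170 CPM with 3 or 4 genes and 530, 616, 593, 632 and 351 CPM with all 4, and Angptl1 553, 314, 291, 233 and 230 CPM and 641, 393, 338, 470 and 508 CPM, so that with all 4 genes neither was lower in lactation than in the adult. Smoc2 was 1470, 1023, 1263, 1093 and 890 CPM with 3 or 4 genes, lowest in involution, and 1541 CPM in the lactation cells with Cilp and Hmcn2 alone. Mfap4 remained highest in lactation with 3 or 4 genes (1330 CPM) and was lowest there with all 4 (336 CPM).

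Placebo and MPA+E were compared within the Thbs4/Cilp cells to see how they differed after exposure to the hormones. In edgeR, 56 of 12093 genes were higher with MPA+E (0.463%) and 13 were lower (0.108%), while 1202 had an unadjusted p under 0.05. The number of calls moved widely when 1 library was left out, in fits where the lone library of a group was assumed to vary like the other group. The log2 differences kept their sign in these fits, with Ctla2a, the largest rise, at 4.68 to 6.05 and Tgfbi, the largest fall, at -3.27 to -3.02. By the study's methods each hormone library pooled its own pair of females, and p-values measure the spread between such pools.

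Genes of the steroid hormone response moved apart. Greb1, an estrogen-induced gene, was 9.89 and 9.42 CPM with placebo and 109 and 70.3 CPM with MPA+E (log2 difference 3.23, SE 0.23, edgeR adjusted p = 0.00973). Pgr, the progesterone receptor and itself a target of the estrogen receptor, was 2.84 and 5.57 CPM against 25.9 and 29.2 CPM (2.69, SE 0.33, edgeR adjusted p = 0.0450). Esr1, the estrogen receptor, was 58.2 and 50.1 CPM against 15.5 and 16.7 CPM (-1.72, SE 0.16, edgeR adjusted p = 0.0214). The 3 genes thus rose, rose and fell without overlap, and the 5 other genes of the list of 8, which held hormone receptors and Greb1, were not called.

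The largest rises also held Ctla2a, a cathepsin inhibitor, at 20.2 and 15.4 CPM with placebo and 461 and 1126 CPM with MPA+E (log2 difference 5.54, SE 0.53, edgeR adjusted p = 0.0242). Ngfr, the low-affinity neurotrophin receptor, was 2.57 and 2.53 CPM against 62.7 and 49.2 CPM (4.47, SE 0.20, edgeR adjusted p = 0.00538). Both genes were low in both placebo libraries and high in both treated ones, without overlap. Nexmif (3.46), Apol9b (3.32), Lipg, an endothelial-type lipase (3.07), H2-Q7, a non-classical MHC class I gene (3.03) and Dlgap1 (3.02) rose as well.

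Of 11 interferon-induced genes tested 8 rose and 3 were not called, at a median log2 difference of 2.04 against 0.02 over all genes. Isg15, a ubiquitin-like modifier, was 134 and 187 CPM with placebo and 812 and 563 CPM with MPA+E (2.11, SE 0.26, edgeR adjusted p = 0.0450). Irf7, a transcription factor of that response, was 49.7 and 49.4 CPM against 383 and 265 CPM (2.73, SE 0.20, edgeR adjusted p = 0.00973). Rsad2 (3.60) and Ifi44 (4.15) showed the largest rises of the list, while Ifit1 (1.40, edgeR adjusted p = 0.139) did not pass, although its libraries did not overlap either. Groups that did not overlap were found for 37.1% of all 12093 genes.

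Tgfbi was 319.9 and 353 CPM with placebo and 39.4 and 35.2 CPM with MPA+E (log2 difference -3.15, SE 0.17, edgeR adjusted p = 0.00831). Igfbp3 was 202 and 220.2 CPM against 41.5 and 30.9 CPM (-2.52, edgeR adjusted p = 0.00973) and Igfbp5 355 and 437 CPM against 92.0 and 124 CPM (-1.85, edgeR adjusted p = 0.0494), and both IGF binding proteins thus fell without overlap. Chrdl1, a BMP antagonist (-2.05), the Wnt modulator Sfrp4 (-1.60), the sphingomyelinase gene Smpd3 (-2.07), Abcc9 (-1.60), Spock2 (-1.41) and Zfp462 (-1.91) fell as well. Of 22 Wnt genes Sfrp4 was the single call. Of 14 genes of the BMP and TGF-β ligand list, 11 receptors, 17 collagens and 17 elastic fibre genes none was called. Myoc was 653 and 871 CPM against 476 and 207 CPM (-1.16, edgeR adjusted p = 0.370).

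**Figure D4:**
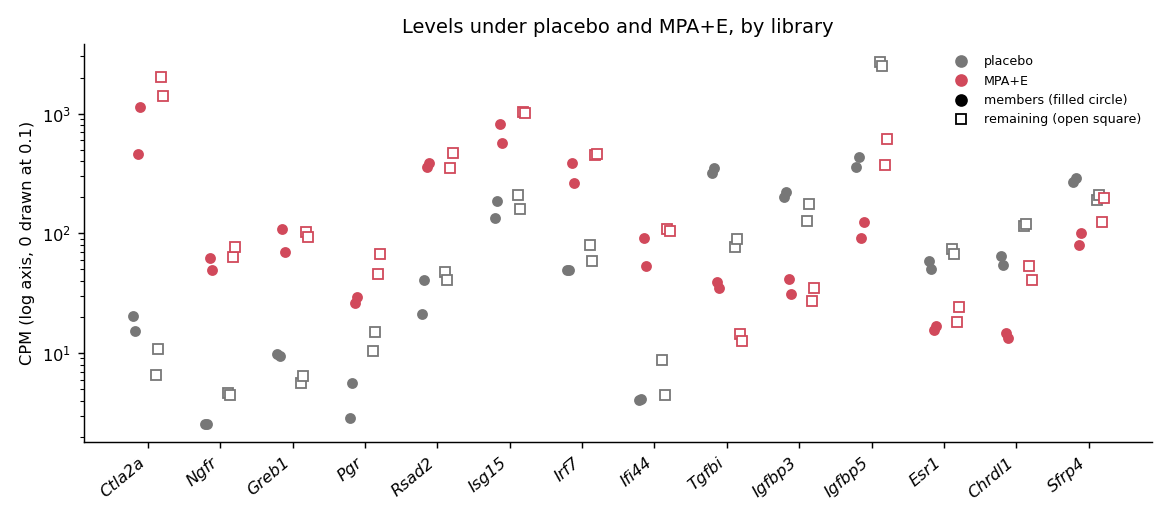
Levels of 14 genes in Thbs4/Cilp cells (filled circles) and remaining fibroblasts (open squares) of the placebo (grey) and MPA+E (red) libraries, in CPM on a log axis, with 1 point per library. In the Thbs4/Cilp cells Ctla2a lay at 20.2 and 15.4 CPM with placebo and 461 and 1126 CPM with MPA+E, and Tgfbi at 319.9 and 353 CPM against 39.4 and 35.2 CPM; the remaining fibroblasts were shifted the same way for both genes.

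Whether the response differed from that of the remaining fibroblasts was tested by an interaction in edgeR, in which 0 of 15038 genes were called higher (0.00%) and 1 lower (0.00665%), with 835 at an unadjusted p under 0.05. Ccn5, a matricellular protein, was 126 and 93.0 CPM with placebo and 299 and 169.8 CPM with MPA+E in Thbs4/Cilp cells. In the remaining fibroblasts it was 19.9 and 15.3 CPM against 200.3 and 166 CPM, so that the ratio between the classes was smaller in both MPA+E libraries than in either placebo library (log2 difference of the responses -2.32, SE 0.18, edgeR adjusted p = 0.0237). The difference was -2.25 without placebo 1 (edgeR adjusted p = 0.258), -2.35 without placebo 2 (0.0715) and -2.41 with likely doublets removed (0.105), of like size but not past the threshold. DESeq2 called 39 genes in this interaction and limma-voom 2. In the untreated stages Ccn5 was 155, 201, 179, 38.3 and 92.1 CPM in Thbs4/Cilp cells from puberty to involution. In the remaining fibroblasts it was 88.8, 77.2, 94.4, 13.5 and 27.3 CPM. The ratio between the classes was thus smaller at every stage than in either placebo library, and the reason was not tested.

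The hyperplasia libraries were compared with puberty and adult, the virgin wildtype stages, by limma-voom within the Thbs4/Cilp cells. Here 1408 of 11739 genes were higher in hyperplasia (12%) and 1102 lower (9.39%), and for 65.8% of all genes the 2 groups did not overlap. Cells admitted by Cilp and Hmcn2 alone were 47.0% and 70.1% of the cells in hyperplasia against 27.9% and 24.1%, and the depth per cell was also greater (medians of 10883 and 10497 UMIs against 6431 and 5343). With at least 3 genes required 1124 genes were called. Leaving out puberty left 1115 calls, and leaving out hyperplasia 1 or 2 left 1357 and 1540.

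The largest rises were of genes near 0 in every wildtype library. Ifi202b, an interferon-inducible gene, was 0.156 and 0.154 CPM in puberty and adult and 129 and 97.0 CPM in hyperplasia (log2 difference 9.03, SE 0.72, limma-voom adjusted p = 0.00137). C1rb, a complement protease gene, was 0.312 and 0.232 CPM against 54.6 and 63.9 CPM (7.55, SE 0.53). The remaining fibroblasts held Ifi202b at 131 and 103 CPM and C1rb at 56.8 and 56.1 CPM in hyperplasia, close to the Thbs4/Cilp cells. Pianp (7.45) and C1s2, another complement protease gene (7.10), showed the same pattern, and mouse background cannot be told apart from hyperplasia for them. The complement genes Masp1 (3.76) and C7 (3.75) and the melanocyte gene Mlana (4.12) were also higher.

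Cebpb was 45.6 and 52.4 CPM in puberty and adult and 854 and 801 CPM in hyperplasia (log2 difference 4.06, SE 0.14, limma-voom adjusted p = 4.28e-05). It was likewise 356 to 1166 CPM in the lactation, involution, placebo and MPA+E libraries, so that puberty, adult and pregnancy were the libraries with low levels. Among 28 mesenchymal transcription factors 27 were tested, with 4 higher (Cebpb, Twist1, Klf4, Prrx1) and 3 lower (Cebpd, Meox1, Hic1).

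Genes of the Wnt and BMP pathways were among those higher in hyperplasia. Axin2, a feedback inhibitor induced by Wnt signalling, was 1.56 and 3.70 CPM in puberty and adult and 12.1 and 18.1 CPM in hyperplasia (2.40, SE 0.39, limma-voom adjusted p = 0.00836). Nkd1, another Wnt-induced inhibitor, was 4.37 and 5.25 CPM against 17.7 and 21.3 CPM (limma-voom adjusted p = 0.00268). Of 19 Wnt genes tested 10 rose and 1 fell (median log2 difference 0.65 against 0.00 over all genes). Bmp4 was 13.6 and 11.4 CPM against 81.5 and 60.5 CPM (2.51, SE 0.22, limma-voom adjusted p = 0.00151). Of 11 target genes of BMP and TGF-β 8 rose and none fell, among them Id1 (1.66) and Smad7 (1.26), which encode a BMP-induced inhibitor of differentiation factors and an inhibitory SMAD. Of 14 genes of the ligand list 5 rose. The 1 that fell was Bmp1, which encodes a procollagen protease and not a ligand. Of 11 receptors 3 rose and 1 fell. Immediate early and heat shock genes moved with these, with 5 of 12 higher and none lower and a summed level of 46863 and 40141 CPM in hyperplasia against 24102 and 31680 CPM in puberty and adult, and their part in the differences was not tested.

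Mmp3, a stromelysin, was 152 and 234 CPM against 879 and 944 CPM (2.26, SE 0.20, limma-voom adjusted p = 0.00160). Fmo2, a flavin monooxygenase that marks the adipogenesis-regulatory class, was 23.3 and 15.7 CPM against 100.02 and 125 CPM (2.58, limma-voom adjusted p = 0.00137), and 5 of 6 genes of that class rose. So did 5 of 6 ECM remodelling genes (Crabp1, Pla2g7, Mmp3, Mgp and Lox) and 3 of 4 preadipocyte genes tested, with median log2 differences of 1.58, 1.75 and 1.40 for the 3 lists. In wildtype lactation and involution the summed ECM remodelling genes were 5267 and 12350 CPM in Thbs4/Cilp cells, against 3862 and 3953 CPM in hyperplasia. The summed preadipocyte genes were 1326 and 1275 CPM, against 1216 and 1204 CPM. In the other wildtype libraries both sums lay below hyperplasia. The adipogenesis-regulatory sum was 443 and 410 CPM in hyperplasia, 101 CPM in the adult and at most 376 CPM in wildtype, in lactation. Of 15 neurotrophic and guidance genes 8 rose, including the axon repellent Slit2 (1.66). The list of angiopoietin-like and vascular ligands also held Efemp1 and Ace, which encode no such ligand. Of its 12 genes tested 6 rose, including Vegfa (1.24) and Efemp1, and 2 fell, Angptl1 and Ace. Hedgehog genes rose in 4 of 11 and Notch genes in 3 of 8.

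The falls held contractile, cell cycle and elastic fibre genes. Acta2 was 39.7 and 31.6 CPM in puberty and adult and 0.479 and 2.26 CPM in hyperplasia (log2 difference -4.92, SE 0.59, limma-voom adjusted p = 0.00337), and all 4 cycling genes tested fell, with Top2a at 12.6 and 3.86 against 0 and 0.151 CPM. Acta2 was also low in the wildtype lactation library, as given above. The cycling genes summed to 42.0 and 17.4 CPM in puberty and adult and 2.24 and 1.36 CPM in hyperplasia. In placebo 1 and lactation they summed to 1.35 and 2.56 CPM, and in the other wildtype libraries to 5.59 to 25.1 CPM. Eln was 2021 and 1072 CPM against 459 and 521 CPM (-1.61, SE 0.28, limma-voom adjusted p = 0.00979), Mfap4 845 and 450.4 CPM against 292 and 130.3 CPM (-1.68, limma-voom adjusted p = 0.0273) and Adamtsl2 89.1 and 77.9 CPM against 30.0 and 7.84 CPM (-2.48, limma-voom adjusted p = 0.0130). Of 17 elastic fibre genes 6 fell and 1 rose, and 6 of 18 collagen processing genes fell and 1 rose. In cells with 3 or 4 rule genes the ratios of Adamtsl2 and Mfap4 were smaller, with Adamtsl2 at 139 and 119 against 78.1 and 39.6 CPM and Mfap4 at 1194 and 635 against 612 and 430 CPM. The groups did not overlap for any of these named genes. Of the lobular cluster list, which is not independent of these samples, 9 of 27 genes fell and none rose, whereas Myoc was 859 and 872 CPM against 562 and 1156 CPM (0.10, limma-voom adjusted p = 0.836).

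Further falls were seen for the neural transcription factor gene Sox11 (-4.16), the imprinted genes Meg3 (-2.67) and Plagl1 (-2.90), Rab6b (-2.81), the ligand gene Alkal2 (-2.68), Ret (-2.87) and Akr1c18 (-2.86). Sox11 was 23.9, 16.3 and 17.2 CPM in puberty, adult and pregnancy and 0.639 and 1.51 CPM in hyperplasia. In the other wildtype libraries Sox11 was 2.62 (lactation) to 5.79 CPM (MPA+E 2), so that puberty, adult and pregnancy were the libraries with high levels. Ret and Akr1c18 rested on the hyperplasia libraries unequally. Akr1c18 was 55.7 and 30.0 CPM against 1.60 and 16.9 CPM, and its difference was -1.28 without hyperplasia 1 and -2.42 without puberty, neither called, and -4.57 without hyperplasia 2. Ret was 59.0 and 32.1 CPM against 14.1 and 2.56 CPM, with -4.05 without hyperplasia 1 and -1.59 without hyperplasia 2. Ret (adjusted p = 0.161 by limma-voom) was not called with at least 3 genes required. Interferon-induced genes, which had risen with MPA+E, were lower in hyperplasia in 8 of 11 (median -1.29), with Ifi27l2a at 1146 and 1064 CPM against 288 and 292 CPM (-1.95, SE 0.14, limma-voom adjusted p = 0.000920).

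The change between puberty or adult and hyperplasia differed between Thbs4/Cilp cells and remaining fibroblasts in the limma-voom interaction for 379 of 14695 genes in the positive direction (2.58%) and 350 in the negative (2.38%). Several of the named genes stood apart between the classes in the wildtype libraries and close together in hyperplasia. Ramp1 was 32.9 and 37.7 CPM in the wildtype and 35.3 and 31.7 CPM in the hyperplasia Thbs4/Cilp cells. In the remaining fibroblasts Ramp1 was 4.44 and 2.38 CPM against 19.9 and 23.8 CPM (difference of the changes -2.89, SE 0.29, limma-voom adjusted p = 0.000846). Tnc, which encodes the matricellular protein tenascin C, was 37.3 and 14.7 CPM against 72.9 and 32.3 CPM in Thbs4/Cilp cells and 7.02 and 6.78 against 159 and 90.8 CPM in the remaining fibroblasts (-3.01, SE 0.29, limma-voom adjusted p = 0.000725). Tnc was thus the higher in Thbs4/Cilp cells in the wildtype and the lower in hyperplasia. With placebo Tnc was 106 and 61.3 CPM in Thbs4/Cilp cells and 37.1 and 26.9 CPM in the remaining fibroblasts. Tchh (-2.46), Sept4 (-2.42) and Sox11 (-2.93) had the same sign, although Sox11 fell in both classes. With placebo, also wildtype, Sox11 was 3.93 and 4.96 CPM in Thbs4/Cilp cells and 4.12 and 5.17 CPM in the remaining fibroblasts.

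In the positive direction C4b, complement C4, was 64.5 and 119.8 CPM in puberty and adult and 303 and 376 CPM in hyperplasia in Thbs4/Cilp cells. In the remaining fibroblasts C4b was 247 and 291 CPM against 235 and 183 CPM, higher in hyperplasia in the first class and lower in the other (2.24, SE 0.23, limma-voom adjusted p = 0.000885). In the other wildtype libraries C4b was 82.5 (lactation) to 404 CPM (MPA+E 1) in Thbs4/Cilp cells, so that its level reached that of hyperplasia. In each of them it was lower than in the remaining fibroblasts. Cd36, a fatty acid transporter, was 3.43 and 2.32 CPM against 10.2 and 27.0 CPM, and 21.0 and 15.7 against 9.81 and 16.9 CPM (3.15, SE 0.30, limma-voom adjusted p = 0.000725). Ptn, which encodes the growth factor pleiotrophin, was 47.2 and 14.7 CPM against 38.2 and 9.35 CPM, and 119.8 and 72.3 against 27.0 and 6.11 CPM (2.33, SE 0.26, limma-voom adjusted p = 0.00136), with values that overlapped in the Thbs4/Cilp cells and lay lower in hyperplasia in the remaining fibroblasts. Il1rl1 (2.22) and Vit (2.17) had the same sign.

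Of the lists, 5 of 6 adipogenesis-regulatory genes differed in the positive direction (Gdf10 1.70, Fmo2 1.64), as did 3 of 3 Pgr Cxcl13 genes, 7 of 11 interferon-induced genes (Isg15 1.09) and 4 of 8 genes of the list of hormone receptors and Greb1, with Prlr, the prolactin receptor, at 2.01. Over all genes 2.58% differed in the positive and 2.38% in the negative direction. Of 12 immediate early and heat shock genes 9 differed in the negative direction (Hspa1a -0.83, Junb -0.55), as did 5 of 22 basement membrane genes and 6 of 27 of the lobular cluster list, among them Smoc2 (-1.56). With at least 3 genes required, 89 genes were called in place of 729, and Cd36 (0.37, limma-voom adjusted p = 0.869), C4b (1.74, limma-voom adjusted p = 0.0865) and Vit (1.72, limma-voom adjusted p = 0.163) did not pass, while Ptn, Il1rl1, Tnc, Sox11, Ramp1, Tchh and Sept4 did.

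**Figure D5:**
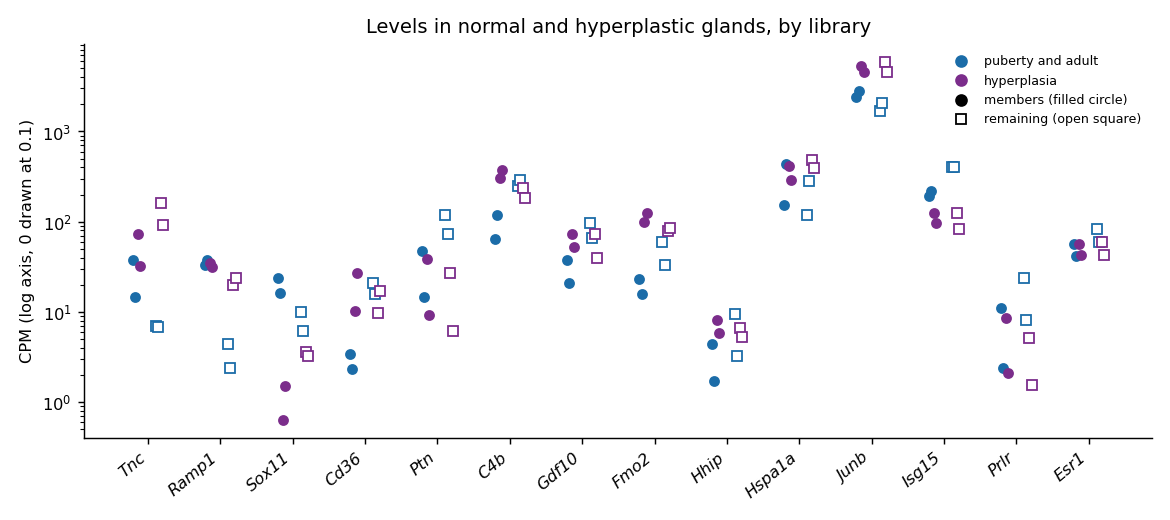
Levels of 14 genes in Thbs4/Cilp cells (filled circles) and remaining fibroblasts (open squares) of the puberty and adult (blue) and hyperplasia (purple) libraries, in CPM on a log axis, with 1 point per library. Ramp1 lay at 31.7 to 37.7 CPM in the Thbs4/Cilp cells of all 4 libraries, while in the remaining fibroblasts it lay at 4.44 and 2.38 CPM in the wildtype and 19.9 and 23.8 CPM in hyperplasia.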

How the data were processed

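Per the labels and the submitters' processing notes, the authors made the deposited count matrices with Cell Ranger 6.1.2 on mm10 from droplet 3′ libraries, and the files hold UMI counts per gene and barcode, not normalized, for barcodes called as cells. Cells were not removed for ambient RNA, and doublets were kept, except in an alternative that dropped the highest Scrublet scores (0.8% per 1000 barcodes).

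Groups were taken from the labels. The rule, the gene lists and the comparisons were chosen with earlier results of these data known. Counts of the Thbs4/Cilp cells and of the remaining fibroblasts were summed per library, so that libraries and not cells were replicates. Sums were tested with edgeR 4.0.16 (quasi-likelihood, TMM factors, filterByExpr; the library as a block for the cells against the remaining fibroblasts) and, for hyperplasia, limma 3.58.1 (voom), in R 4.3.3. Adjusted p-values (Benjamini-Hochberg) were taken over all genes tested, and a gene was called under 0.05. Genes of the rule, the cell gate and mitochondria were left out of the counts. Shares were compared with exact permutation tests.

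Named genes were the largest rises and falls among called genes with at least 20 CPM in the higher class: 15 and 10 for the cells against the remaining fibroblasts with the same direction in every library, 10 and 10 for hormones, 8 and 8 for hyperplasia and 5 and 5 for each interaction without overlap, the 12 largest stage ratios, and examples of the lists. For stages, genes reached 100 CPM. Motif positions and annotations came from GRCm38.p6. The tests were also run on simulated counts drawn with the same spread for every gene. That setting was not matched to these libraries, and nothing is read from it. Alternatives were DESeq2 1.42.0, the other test of edgeR and limma, RLE factors, no filter on low counts, at least 3 genes, a 5% mitochondrial limit, doublet removal, a replicate block and leaving out each library, and for shares also a fibroblast limit of 100 and thinning to 2000 or 4000 UMIs. Tumour libraries entered no test.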

Additional observations from a re-analysis of the deposited data

Results flagged for a closer look

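The response to MPA+E of Ccn5 differed between Thbs4/Cilp cells and remaining fibroblasts (log2 difference of the responses -2.32 in the edgeR interaction), with the mean at 109.6 CPM with placebo and 234 CPM with MPA+E in the first and 17.6 and 183 CPM in the second. In the untreated adult library Ccn5 was 201 CPM in the first and 77.2 CPM in the second.

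The change from puberty and adult to hyperplasia differed between the classes by the limma-voom interaction for Cd36 (3.15), Ptn (2.33), C4b (2.24), Il1rl1 (2.22) and Vit (2.17), and for Tnc (-3.01), Sox11 (-2.93), Ramp1 (-2.89), Tchh (-2.46) and Sept4 (-2.42). With at least 3 genes required, Cd36, C4b and Vit did not pass, as given above. Il1rl1 was 4.84 and 4.71 CPM against 5.43 and 6.64 CPM in Thbs4/Cilp cells and 20.3 and 21.2 CPM against 7.13 and 4.38 CPM in the remaining fibroblasts. Vit was 6.71 and 7.49 CPM against 26.0 and 25.3 CPM, and 31.3 and 28.8 CPM against 29.7 and 17.3 CPM. Tchh was 22.0 and 34.3 CPM against 15.3 and 13.9 CPM, and 4.35 and 7.88 CPM against 17.1 and 18.1 CPM. Sept4 was 13.6 and 10.3 CPM against 28.3 and 36.0 CPM, and 3.40 and 2.48 CPM against 36.7 and 47.2 CPM.

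The tumour libraries stood outside the rule, and the same gate took 22.1% and 24.5% of their fibroblasts. Thinned to 2000 UMIs these shares were 7.85% and 6.85%, and with at least 3 genes 2.76% and 1.53%. In tumour 1 35.8% and in tumour 2 70.5% of the unthinned cells in the gate held Thbs4 and Cilp alone, 12.5% and 6.26% held 3 or 4 of the genes and 9.80% and 0.0963% held a Myoc UMI. The summed tenocyte markers in these cells were 244 and 166 CPM, and in the remaining fibroblasts of the same tumours 196 and 88.1 CPM.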

How the results depend on the processing

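The cells against the remaining fibroblasts gave 556 genes within the hyperplasia libraries, in place of 972, and 895 to 992 with 1 library left out. For hormones in the Thbs4/Cilp cells the count of 69 became 742 without a filter on low counts, 296 with DESeq2, 136 with at least 3 genes, 30 without likely doublets and 0 to 372 with 1 library left out. For the hormone interaction the count of 1 became 324 without a filter, 2 with limma-voom, 39 with DESeq2, 34 with at least 3 genes, 2 with the 5% mitochondrial limit, 0 without likely doublets and 0 to 364 with 1 library left out. For hyperplasia 2510 became 1124 with at least 3 genes and 1115 to 2019 with 1 library left out, and for its interaction 729 became 425 with DESeq2, 89 with at least 3 genes and 315 to 834 with 1 library left out. The causes of these shifts were not tested.

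Over all fibroblasts, log2 differences with MPA+E ranged, with 1 library left out, from -0.60 to 1.37 for Thbs4, 0.28 to 1.22 for Cilp, -1.46 to 0.19 for Hmcn2, -1.29 to 0.70 for Bmp5 (-0.22 with limma-voom) and -2.04 to -0.61 for Myoc. In hyperplasia Thbs4 was -2.25 with edgeR and -2.24 with DESeq2, neither past the threshold, and with 1 library left out it ranged from -4.18 to -1.44, Cilp from -2.21 to -1.34, Hmcn2 from -0.32 to 0.19, Bmp5 from -1.06 to 0.37 and Myoc from -0.33 to 1.18. The share of fibroblasts with MPA+E less placebo, 2.13 points, ranged from -3.09 to 7.36.

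The ratio of lactation to adult in the share was 0.901 thinned to 2000 and 1.06 thinned to 4000 UMIs and 0.605 with at least 3 genes; that of involution to adult was 1.03, 1.31 and 0.954. Settings chosen after seeing the data gave 0.513 and 0.608 thinned with at least 3 genes, 0.665 and 1.22 without pairs of Cilp and Hmcn2 alone, and 0.539 and 0.893 with both thinning and no such pairs. Lactation thus fell below the adult under 5 of these 6 settings, and the cause was not tested.

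Replicate numbers of placebo and MPA+E were not shown to pair the libraries (r = 0.164 over 12114 genes, 2 pairs). With the replicate block 306 genes were called within the Thbs4/Cilp cells, and over all fibroblasts Bmp5 was -0.18. The other values were for named genes and for ratios of shares between stages. Of these, 1094 kept their direction and side of the threshold or, for untested ratios, stayed within the counting-error interval. The call was lost in 65, and 16 moved outside that interval, namely 7 ratios of shares and 9 stage ratios of genes. The median depth of 3611 to 18803.5 UMIs per Thbs4/Cilp cell limits how many of the 4 genes can be detected in a cell.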
